A study of Homo sapiens with 3 samples.

Results

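The 10 genes described here carry a growing cell past the commitment point of G1, the gap phase before DNA replication. They are the D-type cyclins CCND1, CCND2 and CCND3, the kinases CDK4 and CDK6, the pocket proteins RB1, RBL1 and RBL2, and the transcription factors E2F1 and E2F4. They were chosen by name and not by a rule on their values, though with earlier results of these data known. All 10 were found by Ensembl identifier among the 62754 genes of the table. MCF10A cells are human breast epithelial cells that grow without limit in culture but do not form tumors. RNA was taken from 3 replicates of 1 condition, cells that carried the empty vector of a doxycycline-inducible retroviral system, had been selected with puromycin, held no gene of interest and received no treatment, doxycycline included. All 3 libraries belong to batch 1, and no other genotype, treatment or time was compared. The sources used here do not say whether the replicates were separate cultures, so the SD given below may be partly technical.

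Growth factors raise the D-type cyclins, which bind CDK4 or CDK6 and turn them into active kinases. The active kinase phosphorylates the pocket proteins RB1, RBL1 (p107) and RBL2 (p130), which otherwise hold E2F factors at their target promoters and keep them silent. Once released, E2F factors, each paired with a DP protein, switch on genes for nucleotide supply and DNA replication, and among these targets are genes of the pathway itself.

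The promoter windows of E2F1 and RBL1 hold letter strings of the E2F site that were searched here, and those of their family counterparts E2F4 and RBL2 do not. The strings TTTCGCGC and TTTGGCGC were searched on both strands. Other letter forms of the E2F site were not searched, so a window without a match may still hold one. The 100 bases before a RefSeq start of each gene (GRCh38.p14) are shown 5′ to 3′ on the strand of the gene. Every match to these strings is in capitals. They lie at chr20:33686386-33686485 (minus strand) for E2F1, chr16:67192055-67192154 (plus) for E2F4, chr20:37095998-37096097 (minus) for RBL1 and chr16:53434371-53434470 (plus, the first of 2 windows) for RBL2. The RBL2 stretch lies inside the gene as placed below, which begins at 53433977, while the others end just before the first base of their gene. The stretches of RBL1 and RBL2 are therefore not like for like.
E2F1: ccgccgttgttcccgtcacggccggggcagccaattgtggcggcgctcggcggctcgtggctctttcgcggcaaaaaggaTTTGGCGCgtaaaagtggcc
E2F4: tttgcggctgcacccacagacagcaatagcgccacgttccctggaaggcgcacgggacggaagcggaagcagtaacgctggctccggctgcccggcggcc
RBL1: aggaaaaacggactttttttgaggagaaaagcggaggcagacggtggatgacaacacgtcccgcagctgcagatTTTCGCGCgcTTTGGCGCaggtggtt
RBL2: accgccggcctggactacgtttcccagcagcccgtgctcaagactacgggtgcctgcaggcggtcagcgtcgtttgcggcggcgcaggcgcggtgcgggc

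In RBL1 the strings stood next to each other without overlap, with their first bases at -26 and -16 from the start. In E2F1 the single match to the strings searched began at -20. The windows searched ran from 250 bases before to 50 bases after a start. The table held 12 windows for 8 of the members, of which 2 had a match, and 1.15% of all windows in it had one. CCND1 and CCND2 had no window. The only windows of RB1 and CDK4, and all windows of CCND3 and RBL2, lay inside the gene and not at its first base. For RB1 the window was far from it. Of the 11 E2F target genes listed for this report, 9 had a window, and CDC6, MCM2, MCM3, MCM6 and MCM7 had a match, against 1.40% of all genes with a window. A match is a run of letters in these windows and was not tested as a binding site.

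All 10 members were at or above 1 TPM, the cutoff that the study used to call a gene expressed, in every replicate. TPM corrects the reads of a gene for the length of its transcript and sets the total of a library to 1000000, so that levels of different genes can be set side by side. Of protein-coding genes, 55.2% passed it in every replicate. By the mean, 24.9% of all genes and 56.7% of protein-coding genes passed. The means ran from 21.5 TPM for CCND2 to 284 TPM for CDK4, with a median of 70.04 TPM, and 9 of the 10 lay above 24.9 TPM, the middle value of the 11360 protein-coding genes past the cutoff. These are averages over cells in all phases of the cycle, in which fewer cells that use a gene and less of its RNA per cell cannot be told apart.

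**Figure D1:**
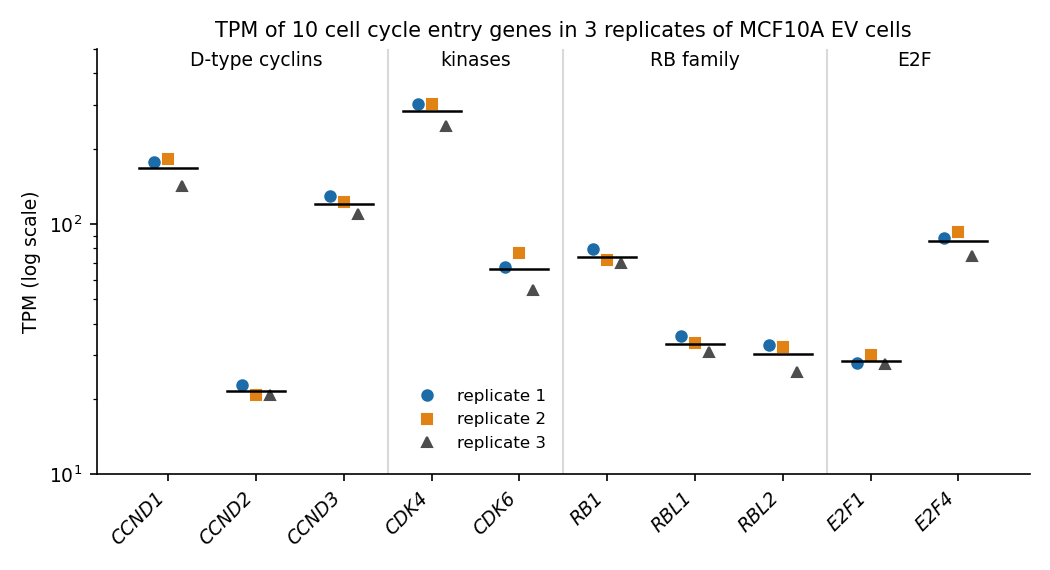
TPM of the 10 members (log axis) in replicates 1, 2 and 3 (blue circles, orange squares, gray triangles), with the mean as a black line, ordered by role. CDK4 sits highest at 247 to 302 TPM and CCND2 lowest at 20.8 to 22.8 TPM, and replicate 3 is the lowest point for 9 of 10 genes.

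The libraries held 15273329, 15446347 and 11166546 reads on annotated genes in replicates 1, 2 and 3, which left between 331 and 4857 reads for a member in a replicate. Counting error alone was therefore between 1.43% and 5.50% of a member's value. Replicate 3 was the lowest for 9 of the 10 members. It was also lower for genes in general, since its median log2 ratio of TPM over the 8807 genes that reached a mean of 10 TPM was -0.25 against replicate 1 and -0.24 against replicate 2. Ratios and shares within a replicate, used below, are free of any shift common to all genes.

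The markers of the line fitted its label. All 5 basal epithelial markers passed the cutoff in every replicate, from TP63 at 49.8 TPM to KRT5 at 6612 TPM, with EGFR at 203, KRT17 at 2669 and KRT14 at 4144 TPM, and so did CDH1, EPCAM, KRT8 and KRT18. Of the markers of hormone-sensing luminal cells, ESR1 had 0, 0 and 3 reads and PGR 1, 0 and 0 reads. GATA3 passed the cutoff in every replicate, with a mean of 12.8 TPM. Markers of other cell types were low, though PECAM1 and COL1A1 also passed the cutoff in every replicate. The leukocyte markers PTPRC and CD3E summed to at most 0.0792 TPM in a replicate, with CD3E at 0 reads. VWF had 2, 0 and 0 reads, PECAM1 a mean of 1.77 TPM, COL1A1 4.96 TPM, PDGFRB 0.271 TPM and COL1A2 0 reads.

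Among the D-type cyclins, CCND1 (ENSG00000110092, chromosome 11 of hg38, 69641156 to 69654474, 5 exons) was the most abundant. It encodes cyclin D1, which answers to growth factors in many epithelia. It was measured at 177, 181 and 143 TPM in replicates 1, 2 and 3, a mean of 167 ± 21.3 TPM (SD, n = 3). CCND3 (ENSG00000112576, chromosome 6, 41934934 to 42050357) encodes cyclin D3 and followed at 130, 123 and 110 TPM, a mean of 121 ± 10.05 TPM (SD, n = 3). The ranges of both genes did not overlap, and CCND1 was above CCND3 in each replicate, by 0.46 ± 0.09 on the log2 scale (SD, n = 3). CCND2 (ENSG00000118971, chromosome 12, 4269771 to 4305353) encodes cyclin D2 and was the lowest member, at 22.8, 20.8 and 20.8 TPM, a mean of 21.5 ± 1.14 TPM (SD, n = 3). ENSG00000285901, a gene on the same strand, overlaps 15.4% of its canonical transcript, and to it 0, 3 and 0 reads were assigned. CCND1 was 7.75-fold and CCND3 5.62-fold above CCND2.

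Of the summed TPM of the 3 cyclins, CCND1 thus held 53.9% ± 1.84, CCND3 39.1% ± 1.24 and CCND2 6.97% ± 0.615 (SD, n = 3 each). All 3 cyclins were present in every replicate, and the order did not change between replicates. How far CCND1 stood above CCND3 depended on the length given to each gene. CCND3 has many annotated starts, so that the union of its exons, 5761 bases, is far longer than its longest transcript of 2394 bases or its canonical transcript of 2026 bases. With the canonical length the log2 ratio of CCND1 to CCND3 was 0.22, and with the union of exons it was 1.56.

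CDK4 was the highest of the 10 genes. CDK4 (ENSG00000135446, chromosome 12, 57747727 to 57756013, 8 exons) was measured at 302, 302 and 247 TPM, a mean of 284 ± 31.4 TPM (SD, n = 3). This was above 96.0% of the protein-coding genes that passed the cutoff. CDK6 (ENSG00000105810, chromosome 7, 92604921 to 92836573, 8 exons) encodes the close relative of CDK4 that binds the same cyclins. It was measured at 67.4, 76.9 and 54.6 TPM, a mean of 66.3 ± 11.2 TPM (SD, n = 3), with the widest spread between replicates of all members. CDK4 was 4.30-fold above CDK6, a log2 ratio of 2.11 ± 0.11 (SD, n = 3), and held 81.1% ± 1.23 of the TPM of the pair. In reads the order was the opposite, with 11850 reads on CDK6 and 8052 on CDK4 over the 3 replicates, since the longest transcript of CDK6 has 11663 bases and that of CDK4 1865. Exons of TSPAN31 on the other strand lie opposite 57.8% of the canonical transcript of CDK4. TSPAN31 itself was at 9.20 ± 0.403 TPM (SD, n = 3), and whether strand was used in counting is not given in the sources used here. Among the other members, the largest overlaps of this kind were 20.4% for RBL2 and 11.7% for CCND1.

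The kinases and their cyclins stood at similar summed levels. CDK4 and CDK6 together came to 369, 379 and 302 TPM, and the 3 cyclins together to 330, 325 and 273 TPM. The ratio of kinases to cyclins was 1.13 ± 0.0323 (SD, n = 3) and above 1 in each replicate. These are transcript levels and say nothing of the amount of protein.

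Of the pocket proteins, the retinoblastoma gene RB1 was the most abundant. RB1 (ENSG00000139687, chromosome 13, 48303744 to 48599436, 27 exons) was measured at 79.8, 71.5 and 69.99 TPM, a mean of 73.8 ± 5.28 TPM (SD, n = 3). RBL1 (ENSG00000080839, chromosome 20, 36996349 to 37095997), which is best known as a partner of repressive E2F factors in cycling cells, was at 35.5, 33.4 and 30.8 TPM, a mean of 33.3 ± 2.36 TPM. RBL2 (ENSG00000103479, chromosome 16, 53433977 to 53491648), the pocket protein best known from resting cells, was at 32.95, 32.3 and 25.7 TPM, a mean of 30.3 ± 4.02 TPM. RB1 was 2.22-fold above RBL1 and 2.45-fold above RBL2, in all 3 replicates, and held 53.8% ± 1.60 of the family's TPM (SD, n = 3). RBL1 held 24.2% ± 0.227 and RBL2 22.0% ± 1.62.

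RBL1 and RBL2 were close. RBL1 was the higher in each replicate by 0.14 ± 0.11 on the log2 scale (SD, n = 3), but the direction depended on the gene length. The longest transcript of RBL2, 6326 bases, is longer than its canonical transcript of 4854 bases, while for RBL1 both are 5686 bases. With the canonical length RBL2 was above RBL1, and the log2 ratio of RBL1 to RBL2 was -0.24. Exons on the other strand, those of AKTIP (8.80 TPM) among them, lie opposite 20.4% of the canonical transcript of RBL2. Whether this added to the reads of RBL2 was not tested.

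E2F4 was the more abundant of both E2F members. E2F4 (ENSG00000205250, chromosome 16, 67192155 to 67198918, 10 exons), which acts mainly as a repressor with RBL1 and RBL2, was measured at 88.2, 92.9 and 74.8 TPM, a mean of 85.3 ± 9.37 TPM (SD, n = 3). E2F1 (ENSG00000101412, chromosome 20, 33675477 to 33686385, 7 exons), an activator held by RB1, was at 27.8, 30.0 and 27.5 TPM, a mean of 28.4 ± 1.36 TPM. Without any scaling of the replicates, E2F1 had the smallest spread relative to its mean of the 10 genes. After each replicate was scaled by its median ratio over genes, its range was among the widest of the members. It was 0.23 on the log2 scale, against 0.26 for CDK6 and 0.05 for CDK4. E2F4 was 2.99-fold above E2F1 in the mean of the within-replicate ratios, in all 3 replicates.

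**Figure D2:**
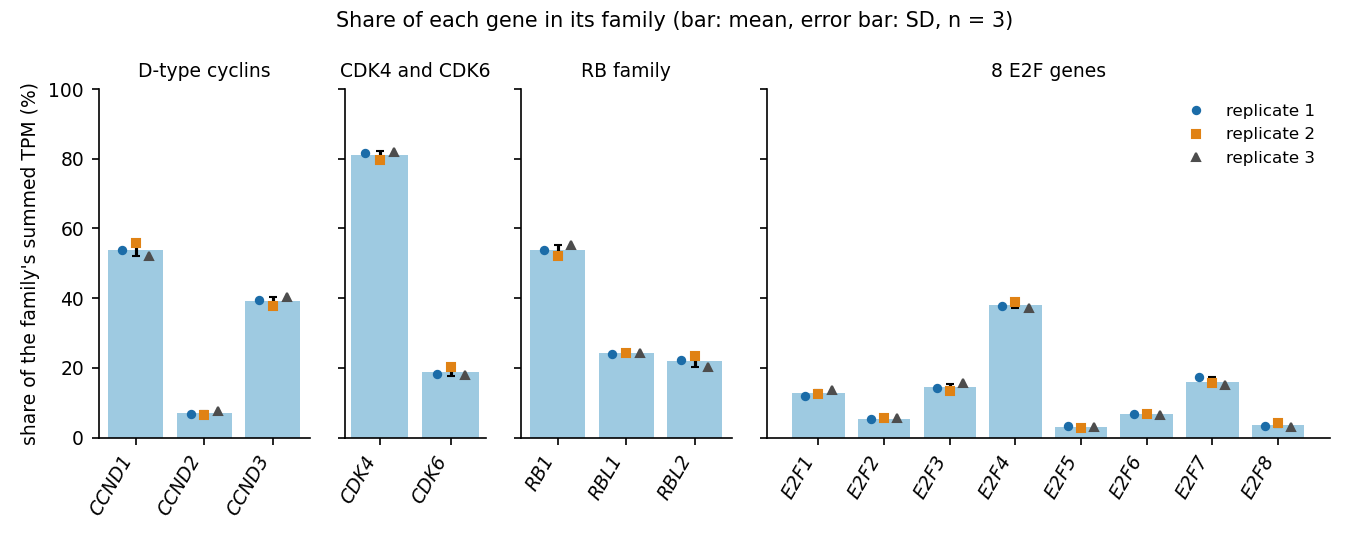
Share of each gene in the summed TPM of its family (percent, from 0 to 100), with bars for the mean, error bars for the SD and points for the 3 replicates. CCND1 and CCND3 make up most of the cyclins, CDK4 81.1% of the kinase pair, RB1 53.8% of the pocket proteins, and E2F4 38.04% of the 8 E2F genes.

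Over all 8 E2F genes, E2F4 held the largest share, 38.04% ± 0.836 of the summed TPM (SD, n = 3). The 6 other E2F genes passed the cutoff in every replicate. Next to E2F4 came E2F7, a repressor that acts without a DP partner, at 36.1 TPM, and the activator E2F3 at 32.1 TPM. These were not separated, since E2F7 was the higher in only 2 of 3 replicates. E2F3 was above E2F1 by 0.17 ± 0.08 on the log2 scale, in 3 of 3 replicates (SD, n = 3). E2F6 was at 14.9, E2F2 at 12.2 and E2F5 at 6.87 TPM, and E2F8 lay between 6.34 and 9.75 TPM. The place of E2F5 among these depends on the gene length used. Its longest transcript has 5042 bases and its canonical transcript 1964. The activators E2F1, E2F2 and E2F3 together held 32.6% ± 1.95, E2F4 and E2F5 41.1% ± 0.677, and E2F7 and E2F8 19.6% ± 1.37 (SD, n = 3 each).

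DP proteins are the partners that most E2F factors need to bind DNA. TFDP1 was measured at 369, 369 and 300 TPM and held 95.2% ± 0.395 of the TPM of the 3 DP genes (SD, n = 3). TFDP2 had a mean of 17.5 TPM, and TFDP3 had 0 reads, which allows at most 0.395 TPM in a replicate at a limit of 3 reads. TFDP1 was above every member in its mean, and 4.05-fold above E2F4. The DP genes together stood 1.62 ± 0.0442 times above the 8 E2F genes together (SD, n = 3).

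The order of the 10 members by mean TPM was CDK4, CCND1, CCND3, E2F4, RB1, CDK6, RBL1, RBL2, E2F1 and CCND2. Neighbours in this order were compared within each replicate and were taken to differ beyond their spread where the log2 ratio had the same sign in 3 of 3 replicates and its mean was larger than its SD. With 3 pairs, an exact two-sided sign-flip permutation test cannot go below p = 0.25, so no test is given. Of the 9 pairs of neighbours, 7 differed beyond their spread. RB1 and CDK6 did not, with a log2 ratio of 0.17 ± 0.24 and CDK6 the higher in replicate 2. RBL2 and E2F1 did not, at 0.08 ± 0.17 (SD, n = 3 each), with E2F1 the higher in replicate 3. The closest pairs that still met the rule were RBL1 above RBL2, at 0.14 ± 0.11, and E2F4 above RB1, at 0.21 ± 0.15 (SD, n = 3 each). The widest steps were from CDK6 to RBL1, 1.98-fold, and from CDK4 to CCND1, 1.70-fold.

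**Figure D3:**
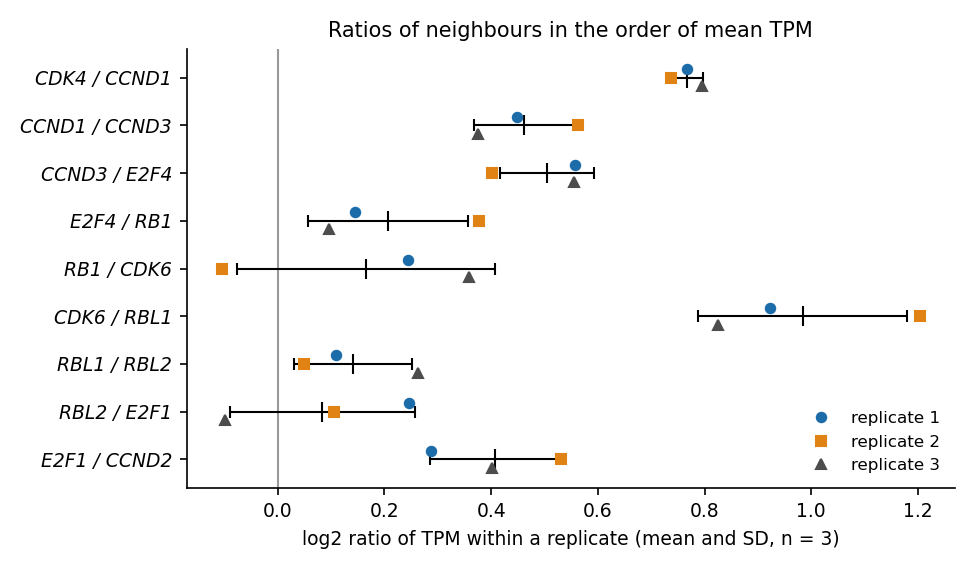
Log2 ratio of TPM between neighbours in the order of mean TPM, within replicates 1, 2 and 3 (colored points), with the mean as a tick and the SD as a bar. Points lie on both sides of 0 for RB1 to CDK6 and for RBL2 to E2F1, and above 0 in all replicates for the other 7 pairs.

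This order rests on the length assigned to each gene. The deposited values fit the longest annotated transcript. With the canonical transcript in its place, the order was kept except that RBL2 moved above RBL1. With the union of all annotated exons, CDK4, CCND1 and CCND2 kept their places at the top and the bottom, CDK6 rose to the third place at 84.6 TPM, and CCND3 fell from the third to the sixth at 67.1 TPM. The log2 ratio of CDK4 to CCND1 then fell to 0.20, from 0.77 with the longest transcript, and the widest step lay between CCND1 at 199 TPM and CDK6.

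**Figure D4:**
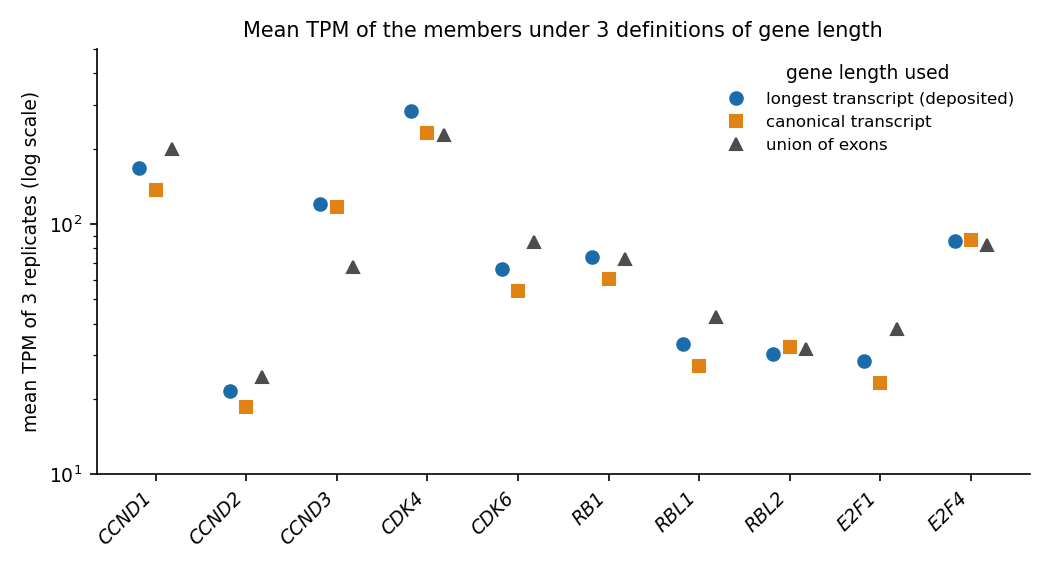
Mean TPM of the 3 replicates (log axis) for each member with the length of the longest transcript (circles), the canonical transcript (squares) or the union of exons (triangles), each rescaled to the same total. CCND3 differs most, at 121, 117 and 67.1 TPM, and CDK4 stays the highest and CCND2 the lowest under all 3.

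Replicates were compared by the reads of each gene after scaling each replicate by its median ratio, with a chi-square test on counts adjusted by Benjamini-Hochberg over 15802 genes with at least 15 reads. Of these genes, 31.2% differed between replicates beyond counting error, and 42.4% of those that also reached a mean of 10 TPM. Of the members, 4 of 10 did. CDK6 deviated most (adjusted p = 3.55e-15 by the chi-square test), with replicate 2 above the others, and its range over the scaled replicates was 0.26 on the log2 scale. RB1 had the next lowest p (adjusted p = 0.000977 by the chi-square test), with replicate 2 the lowest after scaling, over a range of 0.20. From fewer reads, CCND2 and E2F1 had wider ranges, 0.24 and 0.23, and E2F1 was not called (adjusted p = 0.188 by the chi-square test). CCND1 and CCND2 had adjusted p of 0.0249 and 0.0310 by the same chi-square test. Without replicate 2, 0 of the 10 members differed, and 8.91% of all genes did. Without replicate 3, CDK6 and RB1 still differed, beside 21.1% of all genes. The SD of log2(TPM + 1), taken without this scaling, had a median of 0.14 over the members and lay between 0.07 for E2F1 and 0.25 for CDK6. Over all genes past the cutoff by the mean the median was 0.19, and over those that reached 10 TPM it was 0.16. Without replicate 3 the medians were 0.06 for the members and 0.11 for genes past the cutoff.

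The inhibitors of CDK4 and CDK6 were unevenly expressed. INK4 proteins bind these kinases alone and keep the cyclin away. CDKN2A and CDKN2B had 0 reads in each replicate, which at a limit of 3 reads allows at most 0.638 and 0.174 TPM. CDKN2C was measured at 28.7, 25.7 and 21.2 TPM and CDKN2D had a mean of 3.06 TPM, from 67 reads in all. CDKN2C held 89.2% ± 0.700 of the INK4 total (SD, n = 3). CDK4 and CDK6 together were 12.4 ± 0.910 times above the INK4 genes together (SD, n = 3). The size of this ratio depends on the gene length used, which the SD does not cover. The longest transcript of CDKN2C, used here, has 2904 bases, and its canonical transcript only 995. The ratio was not computed with other lengths.

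CIP/KIP proteins inhibit CDK2 and also help to assemble cyclin D with its kinase. CDKN1A (p21) was at 157, 163 and 135 TPM, near the level of CCND1, and held 84.8% ± 1.36 of the TPM of this family. CDKN1B (p27) had a mean of 23.3 TPM and CDKN1C (p57) one of 4.03 TPM. The D-type cyclins together were 1.73 ± 0.0163 times above the 3 CIP/KIP genes together (SD, n = 3).

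Cyclin E and cyclin A with CDK2 take over from cyclin D late in G1 and in S phase. All 6 genes of this list passed the cutoff in every replicate. CCNA2, the cyclin A of somatic cells, was measured at 182, 157 and 142 TPM and was not separated from CCND1, which was the higher in only 2 of 3 replicates. CCNE1 had a mean of 38.1 TPM and CCNE2 one of 25.3 TPM, so that CCND1 was 4.40-fold above CCNE1. Exons on the other strand lie opposite 57.1% of the canonical transcript of CCNE2. CCNA1, known mainly from germ cells, was at 33.2, 26.1 and 22.3 TPM. CDK2 had a mean of 88.0 TPM, 3.22-fold below CDK4 and 1.34-fold above CDK6, each in 3 of 3 replicates. The order of CDK2 and CDK6 may not hold under another gene length. The union of exons has 3887 bases for CDK2, against 2598 for its longest transcript. For CDK6 these are 12239 and 11663 bases. With the union of exons CDK6 was at 84.6 TPM, and the ratio to CDK2 was not computed. CDC25A, the phosphatase that activates CDK2, was at 61.3 TPM.

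**Figure D5:**
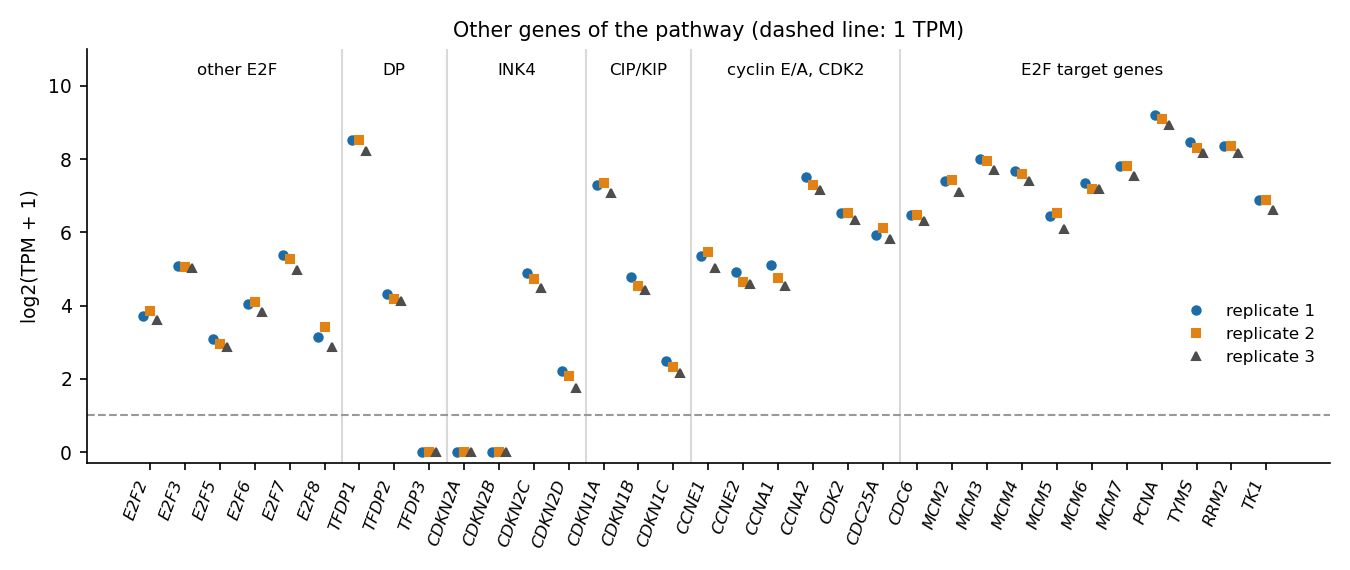
Log2(TPM + 1) of the other E2F, DP, INK4, CIP/KIP and cyclin E, cyclin A and CDK2 genes and of the E2F target genes in replicates 1, 2 and 3, with a dashed line at 1 TPM. TFDP3, CDKN2A and CDKN2B lie at 0, and all 11 target genes lie far above the line, from MCM5 at 81.7 TPM to PCNA at 542 TPM.

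All 11 E2F target genes passed the cutoff in every replicate, with a median of 187 TPM. The highest was PCNA, the sliding clamp of DNA polymerase, at 587, 549 and 492 TPM. The lowest was MCM5, a subunit of the replicative helicase, at 86.7, 90.97 and 67.4 TPM. All 11 were above E2F1 in their means. MuvB is the protein core to which RBL1 or RBL2 with E2F4, or in cycling cells MYBL2, is added. Of the 6 genes listed for this core and its partners, 5 passed the cutoff in every replicate, with the partner MYBL2 the highest at 197 TPM. LIN37 was at 0.932, 1.59 and 0 TPM, on both sides of the cutoff, but a gene on the same strand overlaps 80.4% of its canonical transcript, and its level is therefore uncertain. Over all 9 lists of the pathway, 42 of 47 genes passed the cutoff in every replicate, and the median of the 47 means was 33.3 TPM.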

How the data were processed

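RNA-seq was measured in 3 replicates of MCF10A EV cells. Per the labels, each library was made from 300 ng of RNA after removal of ribosomal RNA. By the methods and processing notes, the authors mapped reads to hg38 with Seq2science, with fastp, STAR and MultiQC among the tools. Versions, annotation release and strand setting are not given in the sources used here. The authors deposited TPM, with each replicate summing to 1000000 and no pooling.

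Symbols, positions and lengths came from GENCODE 44, which held 62700 of the 62754 genes. TPM times the longest transcript (less 1 base per exon), over its smallest step, gave whole reads (within 0.01) for 100% of values, on the premise that this step is 1 read. Intervals and limits cover counting error only. Means, SD, within-replicate log2 ratios and shares were computed. There being 1 condition, no groups were compared. The chi-square test used genes with at least 15 reads. The pseudocount for spreads was 1 TPM. The test was also tested on simulated data.

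The members and lists were chosen with earlier results of these data known. Of the listed genes, 1 is not reported here and was left out of all counts of its list. The text names all members, all genes of the E2F, DP, INK4, CIP/KIP and cyclin E and A lists, all markers, and from other lists the highest, the lowest and genes with replicates on both sides of 1 TPM. Pairs outside the families were chosen after values were seen. Alternatives covered the replicates, the cutoff, the gene length, the TPM total, the pseudocount and filters. Scripts ran in Python 3.11.15 with scipy 1.17.1, pandas 2.3.3 and numpy 2.4.6, and figures were drawn with matplotlib 3.10.9.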

Additional observations from a re-analysis of the deposited data

How the results depend on the processing

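No paired analysis was possible because the study holds a single condition. All 10 members and 42 of 47 pathway genes were at or above 1 TPM, the first count did not change under any alternative tried, and the second was 42 or 43. Gene length moved the shares most, by its construction. With the canonical transcript, CCND1 held 50.2% of the D-type cyclins, RB1 50.3% of its family and E2F4 78.7% of the pair with E2F1. With the union of exons, these were 68.3%, 49.7% and 68.5%, and CDK4 held 73.0% of the pair with CDK6. Shares and ratios that include genes outside the members were computed with the longest transcript only. The log2 ratio changed sign for RBL1 to RBL2 with the canonical length (-0.24), and with the union of exons for CCND3 to E2F4 (-0.30), RB1 to CDK6 (-0.20) and RBL2 to E2F1 (-0.28). The alternatives for the order were chosen after seeing the data. The level of 9 of 10 members moved by more than 1 SD when the total was taken over protein-coding genes only, a change of scale common to all genes of a library. The median spread of the members was 0.14, with 0.0588 as the lowest value on leaving out a replicate (replicate 3) and 0.167 as the highest (replicate 2), and the cause was not tested. The number of members whose reads differed between replicates was 4, lay between 0 (without replicate 2) and 4 when 1 was left out, was 2 without replicate 3, and was 8 under equal TPM without scaling, where 54.3% of all genes differed. Depth did not limit the count of members past the cutoff, each with at least 331 reads in a replicate. It did bear on the chi-square calls, which reach smaller differences where reads are many. CCND1, with 10816 reads in all, was called at a scaled log2 range of 0.11. E2F1, with 1160 reads, was not called at 0.23.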

Other observations

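Genes that act on the members but enter no comparison above were also read. The CDK-activating kinase, which phosphorylates CDK4 and CDK6 once they are bound to a cyclin, passed the cutoff of 1 TPM in every replicate for 3 of 3 genes, from MNAT1 at 23.7 TPM to CDK7 at 64.0 TPM. Of the 5 genes listed for the turnover of D-type cyclins, 4 passed the cutoff in every replicate. GSK3B, a kinase that marks cyclin D1 for degradation, was the highest at 55.5 TPM, and CRYAB, a small heat shock protein that serves as a cofactor of a cyclin D1 ligase, the lowest at 0.273 TPM from 3, 6 and 5 reads.

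The annotated relatives of the members, looked up after their values were known, held few reads. The processed pseudogenes CCND2P1, CCND3P1, CCND3P2, CDK4P1 and E2F4P1 had 0 reads in every replicate. Of the neighboring non-coding genes named after a member, CCND2-AS1 and RB1-DT had 0, 1 and 0 reads each, and CDK6-AS1 had 6, 8 and 4 reads, a mean of 1.48 TPM.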
